A study of Mus musculus with 6 samples.

Results

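The genes described here are 10 transcripts that cells make in response to ERK signalling and that, for the most part, act back on it: Dusp4, Dusp5, Dusp6, Spry1, Spry2, Spry4, Spred1, Spred2, Etv4 and Etv5. They were chosen by name, and each was read from the 1 array feature whose annotation gave that symbol and no other, so all 10 of 10 were found among 30702 genes. The cells were mouse embryonic stem cells of a line named iRunx, grown as embryoid bodies, clumps in which the germ layers arise. On day 4 of differentiation the bodies were dissociated, and Flk1-positive, PDGFRα-negative cells, among which the forerunners of vessels and blood are found, were sorted. The HOXB4 group carried a retrovirus for tdTomato and HOXB4, a homeobox factor known for driving the expansion of blood stem and progenitor cells; the control group was sorted from cells without it. The labels do not say if controls carried an empty vector, which species' HOXB4 was used, or if the inducible Runx gene implied by the line's name was switched on. There were 3 arrays per group, from replicate experiments that the series text calls independent. The comparison addresses the effect of the HOXB4 virus in the sorted cells. Unless controls carried an empty vector, HOXB4 cannot be told apart from tdTomato or from the virus itself.

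ERK is the last kinase of a cascade that carries signals from growth factor receptors such as those for FGF and VEGF through Ras, Raf and MEK. Active ERK turns on genes whose products damp it again, so their transcripts are commonly used as a readout of recent ERK activity. DUSP4, DUSP5 and DUSP6 are phosphatases that remove the activating phosphates from MAP kinases, with DUSP6 acting on ERK in the cytoplasm and DUSP4 and DUSP5 in the nucleus. Sprouty and Spred proteins act upstream and limit the activation of Ras and Raf. ETV4 and ETV5 are ETS transcription factors of the PEA3 family that carry FGF signals to their target genes. In differentiating stem cells, FGF and ERK signalling is needed to leave pluripotency and to form mesoderm.

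Values are log2 expression summaries, so a difference of 1 is 2-fold. The arrays had medians of 5.10 to 5.22 over genes and of 3.06 to 3.15 over 23 background features. The lowest value of any member on any array was 5.01, above those background medians. Kdr, which encodes Flk1, stood at 13.68 to 14.33 on the 6 arrays and differed by 0.06 (SE 0.19), so the sorting marker was high in both groups. The feature listed for Pdgfra is shared with Mir7025, and the one for Hoxb4 is shared with Mir10a. They stood at 5.95 to 7.15 and 4.24 to 4.96 and check neither marker nor transgene. Across the whole table, limma called 0 of 30702 genes (0%) at a Benjamini-Hochberg adjusted p below 0.05, and 2513 genes had an unadjusted p below that level; without moderation of the variances the counts were 0 and 1974. Higher genes made up 27.3% of the 2513, and 51.9% of such genes when the arrays were scaled by cyclic loess instead. Among the HOXB4 arrays, replicate 2 stood apart: the SD over genes of its difference from replicates 1 and 3 was 0.441 and 0.394, against 0.283 between replicates 1 and 3. Member values are therefore given with and without that array where it matters.

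The 3 phosphatase genes all had higher means in HOXB4 cells, and the Spred and ETS factor genes had slightly lower ones, but no member passed the test over all genes. Of the 10 members, 6 differed upward and 4 downward, where 40% of all genes differed upward and 60% downward. The median difference of the members was 0.24, against -0.04 for all genes; it was 0.05 without control 2 and 0.09 without HOXB4 2. In 1 member, Dusp6, the HOXB4 arrays all exceeded the control arrays, as in 3.24% of all genes, and in 0 of 10 they all lay below, as in 10.2%. At an unadjusted p below 0.05, 1 member was higher (2.23% of all genes) and 0 were lower (5.95%). Arrays of RNA from sorted cells cannot tell apart fewer cells of one kind and less RNA per cell, which holds for every value given here.

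**Figure D1:**
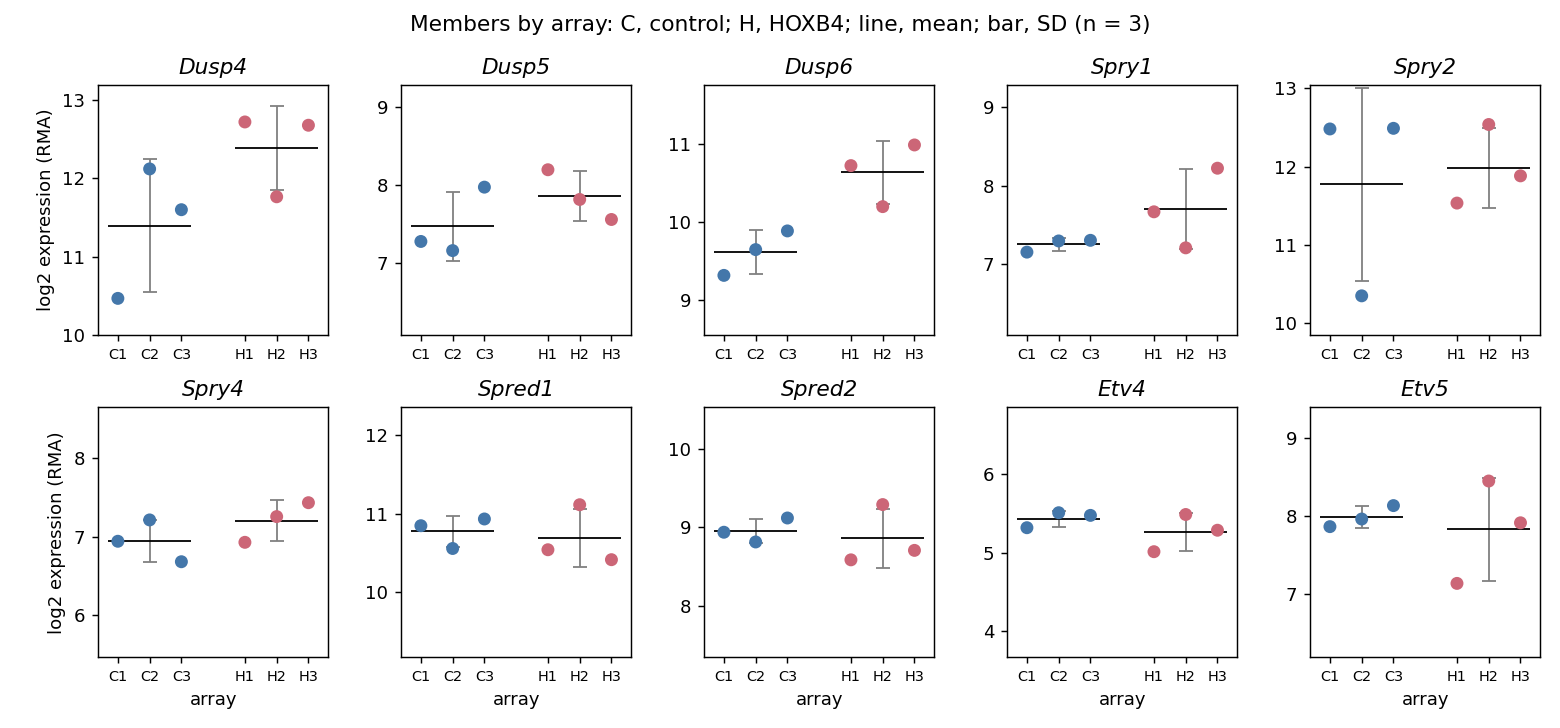
Log2 expression of the 10 genes on each of the 6 arrays, with control arrays C1 to C3 in blue, HOXB4 arrays H1 to H3 in red, group means as lines and SD (n = 3) as bars; each panel has its own vertical range. Dusp6 is the panel in which the groups do not overlap, and Spry2 has 1 control array, C2 at 10.35, far below the other 5.

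Dusp6 showed the clearest separation of the groups. Controls 1 to 3 gave 9.32, 9.65 and 9.89, and HOXB4 replicates 1 to 3 gave 10.72, 10.20 and 10.98. The gap between the highest control and the lowest HOXB4 array was narrow, because HOXB4 2 lay nearer to the controls than replicates 1 and 3 did. The means were 9.62 ± 0.29 and 10.63 ± 0.40 (SD, n = 3 each), a difference of 1.02 (SE 0.23), which is 2.02-fold with a 95% interval from 1.38 to 2.96-fold. The unadjusted p ranked Dusp6 at place 101 of 30702 genes, and after Benjamini-Hochberg adjustment limma gave 0.605, which is the smallest adjusted p in the table and is shared with other genes. A difference above 1 was found for 0.401% of all genes. The Dusp6 difference was at 0.84 to 1.23 when any 1 array was left out, and at 1.23 without HOXB4 2 (limma adjusted p = 0.102).

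Dusp4 had a mean difference of like size with far more spread. Its values were 10.47, 12.12 and 11.60 in controls and 12.72, 11.77 and 12.68 in HOXB4 cells. HOXB4 2 lay below control 2, so the groups overlapped, and control 1 was the lowest array. The difference was 0.99 (SE 0.45, limma adjusted p = 0.611), and its interval from -0.08 to 2.07 included 0. Without control 1 it was 0.53 and without HOXB4 2 it was 1.30 (limma adjusted p = 0.288). Dusp5 stood at 7.28, 7.16 and 7.97 in controls and at 8.19, 7.81 and 7.56 in HOXB4 cells. Control 3 lay within the HOXB4 values, and the Dusp5 difference was 0.39 (SE 0.25, limma adjusted p = 0.683). It was 0.22 without HOXB4 1, 0.23 without control 2 and 0.64 without control 3.

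The RefSeq table of promoters (assembly GRCm38.p6, 250 bases before to 50 after the start) held 7 of the 10 members, with 2 promoters for Etv5. It held none for Dusp4, Spry4 and Etv4, so nothing is said here of their motifs. Capicua is a repressor that ERK signalling relieves and that is known to act on the PEA3 genes, while SRF, which binds the CArG box, serves the immediate response to ERK. Stretches before the start that hold such letters are printed 5′ to 3′ on the gene's strand, because they show which of these elements lie beside members that did and did not separate the groups. Capitals mark a capicua octamer in Dusp6 and Spry2, octamers of the same form that end in G in Etv5, and 2 adjoining CArG boxes in Dusp5.
Dusp6, chr10:99263187-99263230, plus strand: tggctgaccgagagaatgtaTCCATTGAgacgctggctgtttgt
Spry2, chr14:105896846-105896893, minus strand: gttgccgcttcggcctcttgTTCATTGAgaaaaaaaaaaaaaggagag
Etv5, chr16:22438472-22438618, minus strand: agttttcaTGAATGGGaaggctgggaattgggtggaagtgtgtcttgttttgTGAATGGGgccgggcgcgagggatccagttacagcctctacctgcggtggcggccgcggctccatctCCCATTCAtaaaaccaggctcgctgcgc
Dusp5, chr19:53529043-53529102, plus strand: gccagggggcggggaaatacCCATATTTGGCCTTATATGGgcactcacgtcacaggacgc

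The motifs were searched on both strands and were chosen after the promoters had been seen. The capicua octamers (TGAATGAA, TGAATGGA, TCAATGAA or TCAATGGA) were in the promoters of Dusp6, with another match just after the start, and Spry2, and in 3.84% of all 32851 promoters. Octamers that differ from these in a final G (TGAATGAG, TGAATGGG, TCAATGAG or TCAATGGG) were in 1 Etv5 promoter with 3 matches and in Dusp5 with 1, against 3.44% of all promoters. The CArG box was in Dusp5 alone among the 7 members with a promoter to search, and in 1.63% of all promoters. The ETS hexamer CCGGAA was in 1 member promoter of 8, that of Spry2, after the start (14.9% of all), and TGANTCA and TGACGTCA were in 0 of 8 (7.81% and 1.79%). No 2 of these patterns overlapped, apart from the palindromic CArG matches on both strands. Dusp6, whose groups separated, and Spry2, whose groups did not, both held a capicua octamer; a match of letters is a description of the sequence and shows no binding.

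Among the Sprouty genes the means were higher in HOXB4 cells, each by less than its spread allowed to be called. Spry1 stood at 7.15, 7.30 and 7.30 in controls, close together, and at 7.67, 7.21 and 8.22 in HOXB4 cells. HOXB4 1 and 3 were above every control, while HOXB4 2 lay inside the control range. The Spry1 difference was 0.45 (SE 0.24, limma adjusted p = 0.643), with values of 0.70 without HOXB4 2 (limma adjusted p = 0.196) and 0.19 without HOXB4 3. Spry4 varied little, at 6.94, 7.21 and 6.68 in controls and 6.93, 7.25 and 7.43 in HOXB4 cells. Its groups overlapped, with a difference of 0.26 (SE 0.18, limma adjusted p = 0.694) that was 0.13 without control 3, 0.15 without HOXB4 3, 0.40 without control 2 and 0.40 without HOXB4 1.

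Spry2 had no stable direction. Controls gave 12.48, 10.35 and 12.49, and HOXB4 cells gave 11.54, 12.54 and 11.88. Control 2 was by far the lowest array, and HOXB4 2 was the highest, just above controls 1 and 3. The Spry2 difference was 0.21 (SE 0.60, limma adjusted p = 0.929) with a 95% interval from 0.43 to 3.10-fold, and it turned to -0.50 without control 2 and to -0.07 without HOXB4 2. The 7 endothelial markers (Cdh5, Pecam1, Tek, Tie1, Esam, Emcn and Sox7) had mean levels of 8.30, 9.74 and 8.15 in controls and 10.73, 7.92 and 9.30 in HOXB4 cells. All 7 had higher means in HOXB4 cells, and 0 passed the test. The 3 arrays with the lowest Spry2, control 2 and HOXB4 1 and 3, were those with the highest endothelial means. The same arrays had the lowest blood marker means (6.61, 6.70 and 6.45). In that list the globin genes Hbb-bh1, Hbb-y and Hba-x and the factor gene Gata1 had this split, whereas Klf1, Itga2b and Spi1 did not. Hbb-bh1 stood at 12.63, 10.74 and 13.52 in controls and 10.02, 13.57 and 9.84 in HOXB4 cells. Itga2b was highest in HOXB4 1 (7.93) and Spi1 in HOXB4 3 (5.36). Control 2 and HOXB4 1 and 3 also had the lowest smooth muscle and stromal means (8.41, 7.29 and 7.39), so the split is not particular to the endothelial list. The part of any of these cells in the Spry2 values was not tested.

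**Figure D2:**
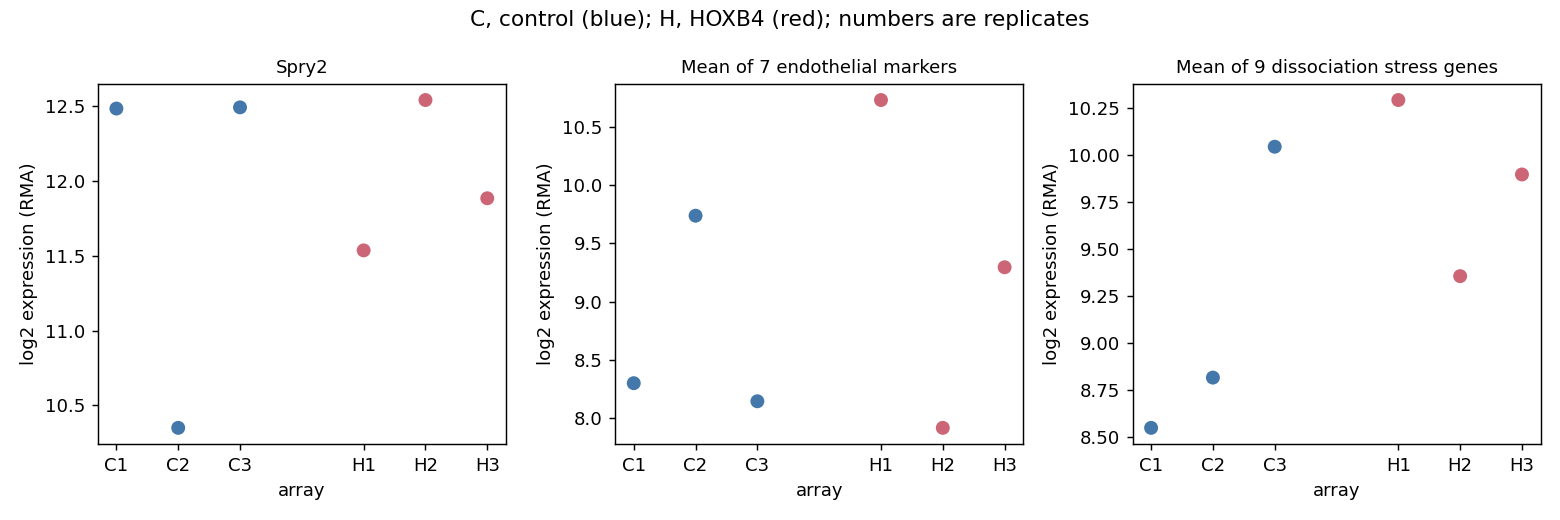
Log2 level of Spry2 (left) and mean log2 levels of 7 endothelial markers (middle) and 9 dissociation stress genes (right) on each array; C, control in blue, H, HOXB4 in red, one point per array. Control 2, at 10.35 for Spry2, has the second highest endothelial mean, 9.74, and HOXB4 2, at 12.54, has the lowest, 7.92.

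Spred1 and Spred2, the 2 Spred genes, followed each other closely and were not separated by group. Spred1 stood at 10.85, 10.55 and 10.93 in controls and at 10.54, 11.11 and 10.41 in HOXB4 cells, a difference of -0.09 (SE 0.20, limma adjusted p = 0.909). Spred2 stood at 8.94, 8.81 and 9.12 in controls and at 8.58, 9.29 and 8.71 in HOXB4 cells, a difference of -0.10 (SE 0.20, limma adjusted p = 0.896). HOXB4 2 was the highest of the 6 arrays for both genes, whereas HOXB4 1 and 3 lay below all 3 controls. Without HOXB4 2 the differences were -0.30 and -0.31 (limma adjusted p = 0.428 and 0.366). Spred1 turned to 0.05 without HOXB4 3 and to 0.01 with cyclic loess, and Spred2 to 0.04 without HOXB4 1. The 95% intervals of the fold change, 0.67 to 1.31 for Spred1 and 0.68 to 1.29 for Spred2, exclude a 2-fold difference in either direction, without adjustment for the number of genes.

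The PEA3 factor genes likewise showed no separation. Etv4 was at 5.32, 5.51 and 5.48 in controls and at 5.01, 5.49 and 5.29 in HOXB4 cells, close to the median gene of the arrays. HOXB4 1 and 3 were below every control and HOXB4 2 was inside the control range, which gave -0.17 (SE 0.14, limma adjusted p = 0.727), or -0.05 without HOXB4 1 and -0.29 without HOXB4 2. Etv5 was at 7.86, 7.96 and 8.13 in controls, a narrow range, and at 7.14, 8.44 and 7.91 in HOXB4 cells. HOXB4 arrays held both its lowest and its highest value, so its SD was 0.66 in HOXB4 cells against 0.14 in controls. The Etv5 difference was -0.15 (SE 0.31, limma adjusted p = 0.895), -0.46 without HOXB4 2 and 0.19 without HOXB4 1.

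**Figure D3:**
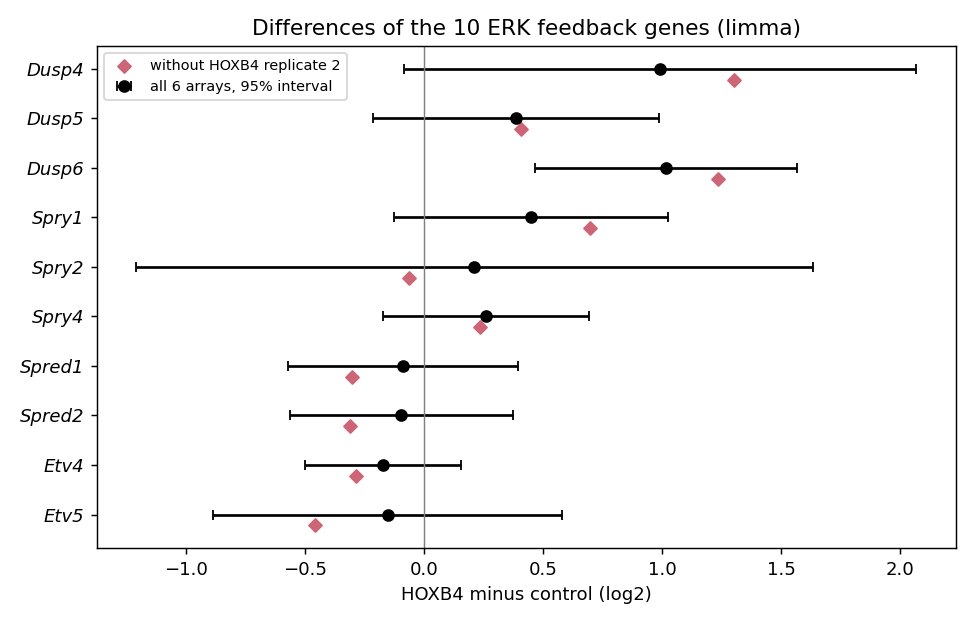
Difference of HOXB4 minus control on the log2 scale for the 10 genes, with points for all 6 arrays, bars for the 95% interval of limma's moderated test, and diamonds for the value without HOXB4 replicate 2. The interval of Dusp6, from 0.47 to 1.57, is the one of 10 that does not include 0, and it is not adjusted for the number of genes.

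The members did not share 1 profile over the arrays. After each gene was centred on its own mean of the 6 arrays, the closest pair was Spred1 and Spred2, with a root mean square distance of 0.087 in log2 units, and the farthest was Dusp4 and Spry2, at 1.33. HOXB4 2 was the highest HOXB4 array for 5 members (Spry2, Spred1, Spred2, Etv4 and Etv5) and the lowest for 3 (Dusp4, Dusp6 and Spry1). For Dusp5 and Spry4 it lay in the middle. Leaving that array out moved Dusp4, Dusp6 and Spry1 further up and the Spred and ETS factor genes further down, and no member was called without it, when 46 genes (0.15%) were.

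**Figure D4:**
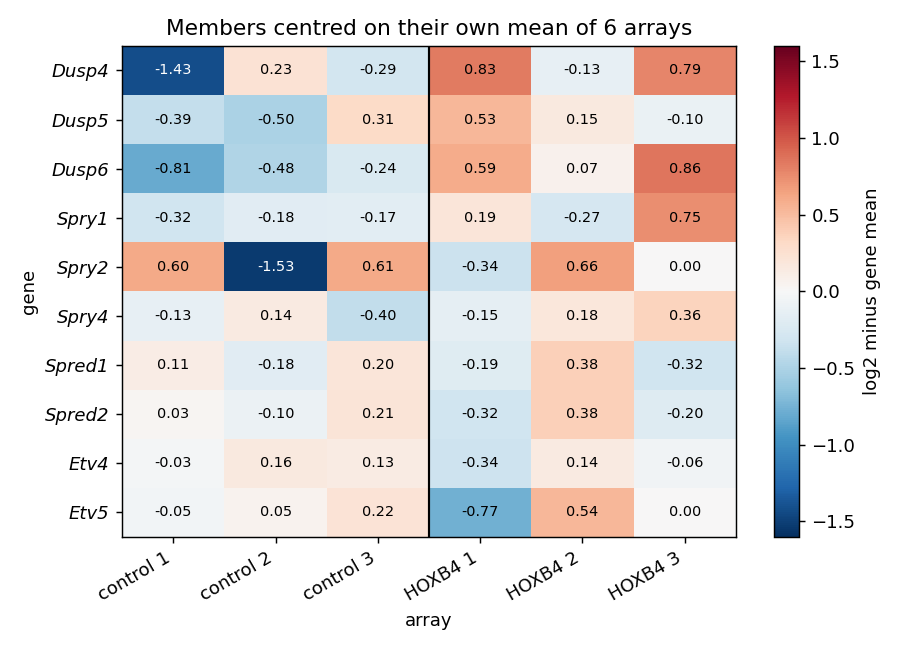
Heat map of the 10 genes (rows) on the 6 arrays (columns), each cell giving the log2 value minus that gene's mean over all arrays; red is above and blue below the mean. HOXB4 1 and 3 stand at 0.59 and 0.86 for Dusp6, while Spred1, Spred2 and Etv5 have their highest value in HOXB4 2, at 0.38, 0.38 and 0.54.

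Genes with a profile most like that of Dusp6 were sought among genes at or above the median level. The 5 nearest by root mean square distance of centred log2 values over the 6 arrays were Plin2, a lipid droplet protein gene (0.14), Cachd1 (0.14), Med13l, a Mediator kinase module gene (0.16), Ctsl, which encodes the lysosomal protease cathepsin L (0.16), and Fermt1, an integrin activator gene (0.16). Their differences, which the likeness to Dusp6 fixes in direction, were 0.79, 1.05, 0.73, 0.76 and 0.73. Cachd1 stood at 10.31, 11.10 and 11.00 in controls and at 11.97, 11.46 and 12.12 in HOXB4 cells, with HOXB4 2 again nearest the controls.

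Around the members, 72 of 82 entries in 6 pathway lists were measured by a feature of their own, and 0 passed limma's adjusted threshold in either direction. At an unadjusted p below 0.05, 2 were higher and 6 lower, where 2.23% and 5.95% of all genes were. None of the entries lay above every control, and 7 lay below, a share near the 10.2% of all genes. Without HOXB4 2, 1 entry was called, Fgf3 (limma adjusted p = 0.013), where 0.15% of all genes were. That array was singled out from these same data. For Fgf3 it was the HOXB4 array nearest the controls, at 8.74, so leaving it out had to widen the difference. The 19 FGF ligands and ERK-coupled receptors had a median difference of 0.01, with 10 higher and 9 lower. The genes of that list with the smallest p all pointed down. Fgf15, an FGF of the early embryo, stood at 11.82, 10.40 and 10.44 in controls and 6.85, 9.21 and 7.12 in HOXB4 cells, a difference of -3.16 (SE 0.68). Its groups did not overlap, and HOXB4 2 lay closest to the controls. Fgfr2, a receptor gene, differed by -0.85 (SE 0.20) and Fgf3 by -1.88 (SE 0.51), both also without overlap. Each of these 3 had a limma adjusted p of 0.605. Without HOXB4 2 the differences were -3.91, -1.07 and -2.53 (limma adjusted p = 0.054, 0.055 and 0.013). Other entries pointed up, among them, chosen for mention after their values were seen, the VEGF receptor gene Flt1 at 1.04 (SE 0.70), Fgf5 at 0.67 (SE 0.35) and the receptor gene Met at 0.53 (SE 0.38).

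Within the ERK cascade, 15 of 23 genes were measured, with 7 higher, 8 lower and a median of -0.0036. Ksr1, a scaffold that joins Raf and MEK, differed by -0.46 (SE 0.17) without overlap, the adaptor gene Shc1 by 0.36 (SE 0.16) and the kinase gene Araf by 0.38 (SE 0.18), both of these with overlap. The 12 Ras GAPs and other brakes had a median of 0.11, with 8 higher and 4 lower. In that list the ubiquitin ligase gene Cblb differed by -0.30 (SE 0.09) and Pebp1, an inhibitor of Raf, by -0.22 (SE 0.08), neither with overlap, while Cbl differed by 0.36 (SE 0.17). Limma's adjusted p for these genes lay between 0.605 and 0.613.

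The 7 other MAP kinase phosphatases had a median of 0.32, with 4 higher and 3 lower. Dusp9, at 11.11, 10.83 and 11.97 in controls and 9.26, 11.60 and 9.26 in HOXB4 cells, differed by -1.26 (SE 0.66). HOXB4 2 lay within the controls, and without it the Dusp9 difference was -2.04. Dusp1, which answers to stress as well as to ERK, differed by 0.91 (SE 0.51) and Dusp8 by 0.32 (SE 0.16). Dusp8 was dim, at 4.71 to 5.45 over the arrays, and both genes overlapped between groups. Phosphatases of this family were thus found on both sides, Dusp4 and Dusp6 above 0 and Dusp9 below.

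Of the 9 measured transcripts of 11 in the list of others induced by ERK, 7 differed upward and 2 downward, with a median of 0.36. Egr1, an immediate-early factor, stood at 7.49, 7.82 and 8.41 in controls and at 8.81, 8.16 and 8.69 in HOXB4 cells, a difference of 0.65 (SE 0.27). HOXB4 2 lay below control 3, so its groups overlapped. Ier3 differed by 0.76 (SE 0.31) and the ephrin receptor gene Epha2 by 0.48 (SE 0.20), with a limma adjusted p of 0.605 for each of the 3. Both overlapped between groups. Ier3 was dim, at 4.20, 4.15 and 4.71 in controls, below the median gene, and at 5.71, 4.48 and 5.13 in HOXB4 cells. All 10 nuclear factors of the ERK response had higher means in HOXB4 cells, where 40% of all genes did, with a median of 0.33. Every one of them overlapped between groups, where 3.24% of all genes lay above every control and 10.2% below. The list averaged 8.36, 8.73 and 8.59 in controls and 9.26, 8.45 and 8.88 in HOXB4 cells. HOXB4 2 thus lay below controls 2 and 3. The highest arrays were HOXB4 1, HOXB4 3 and control 2, as for the endothelial markers. Genes that vary together over the arrays do not count as 10 separate results. The part of endothelial cells in this list was not tested. Among the nuclear factors were the SRF partner Elk1 at 0.28 (SE 0.14), the repressor gene Cic, which encodes capicua, at 0.38 (SE 0.20) and Ets1 at 0.38 (SE 0.26).

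**Figure D5:**
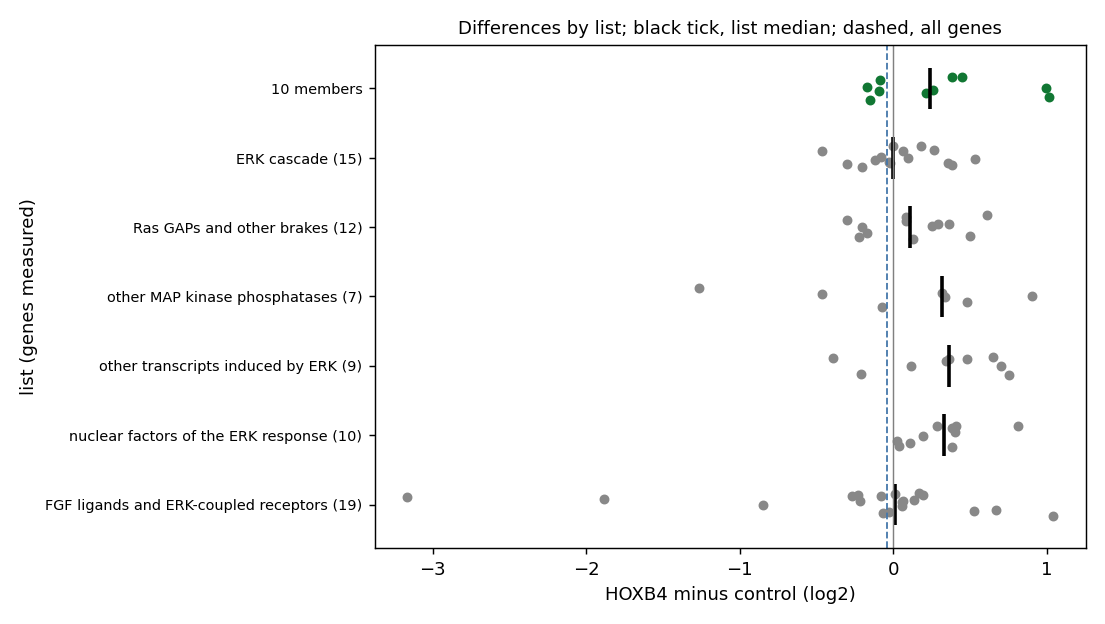
Difference of HOXB4 minus control on the log2 scale, one point per gene, for the 10 members (green) and the 6 pathway lists (grey), with the number of measured genes in brackets; the black tick is the list's median and the dashed line the median of all genes, -0.04. The member median is 0.24, and the far left points of the lowest row are Fgf15 at -3.16 and Fgf3 at -1.88.

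Markers of other cell types and of dissociation stress also varied between arrays. The 9 measured dissociation stress genes, 4 of the list being also in a pathway list, had mean levels of 8.55, 8.82 and 10.04 in controls and 10.29, 9.35 and 9.89 in HOXB4 cells, with 8 of 9 higher and a median difference of 0.70. For both Dusp6 and the stress genes, control 1 was the lowest and control 3 the highest control, and HOXB4 2 was the lowest HOXB4 array. The profiles differed in other ways. Control 3 lay above HOXB4 2 and 3 in the stress mean, but below every HOXB4 array in Dusp6. The highest array was HOXB4 1 for the stress mean and HOXB4 3 for Dusp6. The part of the stress genes in the Dusp6 difference was not tested. The 5 smooth muscle and stromal genes had mean levels of 9.14, 8.41 and 9.28 in controls and 7.29, 9.22 and 7.39 in HOXB4 cells. The 4 measured primitive streak genes had 9.47, 9.47 and 9.75 in controls and 8.56, 10.28 and 9.00 in HOXB4 cells. In the mean of the streak genes, as in Spred1, Spred2 and Etv5, HOXB4 2 was the highest array and HOXB4 1 and 3 lay below or near the controls. Of the streak genes, Mixl1 and Eomes were highest in HOXB4 2, while Mesp1 and Lhx1 were not. Lhx1 stood at 6.13, 6.75 and 6.40 in controls and at 7.02, 6.92 and 8.10 in HOXB4 cells. It thus lay above every control, as 3.24% of all genes did, with HOXB4 2 its lowest HOXB4 array.

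The 7 cardiac markers averaged 6.86 to 7.34 in controls and 5.93 to 6.85 in HOXB4 cells. The array means did not overlap, but control 2 and HOXB4 2 nearly touched. Of the 7, 6 were lower and 1 higher, Tnnt2 at 0.26 (SE 0.17). The largest differences were those of Hand1 at -3.22 (SE 1.06), Hand2 at -1.21 (SE 0.31) and Isl1 at -1.06 (SE 0.56). The 4 neural genes averaged 5.95 to 6.19 and 6.30 to 6.72, a gap that came from Tubb3, which differed by 1.95 (SE 0.62). The other 3 averaged 5.38 to 5.63 and 5.38 to 5.66, and the list's median difference was 0.06. The array means overlapped in the lists that follow. The 7 blood markers averaged 6.61 to 7.56 in controls and 6.45 to 7.46 in HOXB4 cells, and the 5 pluripotency genes 6.44 to 6.84 and 6.49 to 7.51. The 5 measured genes of PDGFRA-lineage and paraxial mesoderm averaged 5.17 to 5.32 and 5.18 to 5.21, and the 4 endoderm genes 4.48 to 4.63 and 4.41 to 4.85. With all 6 arrays 0 marker genes of any list passed limma's adjusted threshold. Without HOXB4 2, an array singled out from these same data, 5 did, where 46 of all 30702 genes (0.15%) did. All 5 were lower: Hand1 at -4.56 (limma adjusted p = 0.014), Isl1 at -1.77 (0.046), Mixl1 at -2.69 (0.023), Pdgfrb at -1.82 (0.023) and Rgs5 at -4.34 (0.046). Their part in the member values was not tested.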

How the data were processed

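Each of 6 samples was hybridised to 1 array. The deposited values are log2 summaries made by the authors with Affymetrix Expression Console and RMA, per the submitters' processing notes (version and settings: not given in the sources used here). RMA corrects background, makes the arrays' distributions alike and summarises probes, so a shift of most genes one way would be partly removed. Values reach 19.9, more than scanners usually record, so levels have no absolute meaning. Between genes they were compared only roughly, as with the median gene or the background features.

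Of 65956 features that are not controls, 31258 named 1 gene after symbols were updated through RefSeq (GRCm38.p6), 1492 several and 33206 none; the brightest stood for each of 30702 genes. The difference between groups came from limma 3.58.1 (R 4.3.3), a linear model with eBayes moderation and no replicate block. Tests are two-sided, adjusted over all genes by Benjamini-Hochberg, and SE is the moderated one. The fit was tested on simulated data. The number of arrays limits the precision.

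Members, lists and rules were chosen with earlier results of these data known. Named were the 10 members, Hoxb4, Kdr and Pdgfra, the 3 genes per pathway list with the smallest p, and the 5 most like Dusp6. Alternatives were a replicate block, other priors, no moderation, array weights, a filter on dim features, 2 scalings, 2 feature rules and each array left out. Plots were drawn with matplotlib 3.10.9 under Python 3.11.15, from tables handled by pandas 2.3.3.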

Additional observations from a re-analysis of the deposited data

How the results depend on the processing

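Over 16 alternatives, 0 members passed limma's adjusted threshold under any, and 6 of 10 members (Dusp4, Dusp5, Dusp6, Spry1, Spry4 and Etv4) kept their direction. The Dusp6 difference ran from 0.84 to 1.23, with adjusted p from 0.102 to 0.925. Member differences stay as they are by construction under 7 of the alternatives (the replicate block among them), and of the 90 member values under the other 9, 6 changed sign: Spry2 to -0.50 without control 2 and -0.07 without HOXB4 2, Spred1 to 0.0068 with cyclic loess and 0.049 without HOXB4 3, and Spred2 and Etv5 to 0.042 and 0.19 without HOXB4 1. With each array left out in turn, these 4 ran from -0.50 (Spry2, without control 2) to 0.57 (without control 3), from -0.30 to 0.049 (Spred1), from -0.31 to 0.042 (Spred2) and from -0.46 to 0.19 (Etv5), the lowest value of the last 3 being without HOXB4 2. The median member difference was 0.05 without control 2 and ran to 0.31 without another array. The count of genes called was 0 to 46 with 1 array left out, 46 being without HOXB4 2, and 0 under the other alternatives. Cyclic loess moved the share of higher genes among those with an unadjusted p below 0.05 from 27.3% to 51.9%, and Dusp6 to 1.10. Same-numbered arrays did not deviate together over all genes (correlations of deviations from group means -0.402, -0.594 and -0.347). Whether equal numbers mark a shared experiment is not stated, and these correlations cannot settle it. The main fit used no pairs, and with the replicate block 0 genes were called. The block cannot move the Dusp6 difference of 1.02. Its SE went from 0.23 to 0.19 with the block, while its limma adjusted p rose from 0.605 to 0.923. Over all genes, those with an unadjusted p below 0.05 fell from 2513 to 1294, which bears on that adjustment. All 10 members passed the filter on dim features. With 3 arrays a group, the widest 95% interval of a member, that of Spry2, spans 0.43 to 3.10-fold and the narrowest, that of Etv4, 0.71 to 1.11-fold.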
